A study of Mus musculus with 12 samples.

Results

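The genes described here are Srebf1, which encodes the transcription factor SREBP-1c, and 9 genes of hepatic de novo lipogenesis that it is known to drive: Acly, Acaca, Acacb, Fasn, Me1, Elovl6, Scd1, Thrsp and Pnpla3. The 10 genes were chosen by name, for their place in the pathway, from the 17432 genes in the deposited table. Earlier results of these data were known when the choice was made. Each of the 10 had enough reads to be tested. The liver RNA of 12 male wild-type C57BL/6J mice aged 8 to 10 weeks was sequenced, 6 sedentary mice and 6 mice that ran on a treadmill. Food intake of both groups had been synchronized for 3 days, with feeding by day and fasting by night, and both had been accustomed to the treadmill. On the day of sampling both groups were refed for 3 hours and then lost access to food. The Exercise group ran at 14 m/min for 3 hours after this meal, the Sedentary group did not run, and livers of both were taken at the same time. The labels give no engineered allele and no drug for either group. The comparison asks how a single bout of running after a meal went with the transcripts of the liver's fat-making pathway.

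De novo lipogenesis turns carbohydrate into fatty acids and is most active in the fed liver. Citrate from mitochondria is split by ATP citrate lyase, the acetyl-CoA is carboxylated to malonyl-CoA, and fatty acid synthase builds palmitate from these units and NADPH. Insulin raises both the transcription of Srebf1 and the processing of its protein, while the liver X receptors, which bind oxysterols, also drive the gene. The protein is made as a membrane-bound precursor, so a transcript level gives the amount of message and not of active factor. The table has 1 row for Srebf1 and does not separate the SREBP-1a and SREBP-1c forms.

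Each of the 10 genes fell after exercise at an adjusted p under 0.05 (quasi-likelihood F test in edgeR, Benjamini-Hochberg adjustment over 12344 genes), where 21.3% of all genes tested fell. Of these, 5 fell by 2-fold or more, namely Pnpla3, Fasn, Srebf1, Elovl6 and Thrsp, where 1.59% of all genes tested did. In 6 genes, these 5 and Scd1, each exercised liver was below each sedentary liver, where 10.6% of all genes tested showed this. The median log2 fold change was -0.88 over the 10 genes and -0.0028 over all genes tested. The other 4 genes, Acly, Acaca, Acacb and Me1, fell by less, and their groups overlapped. Whole liver was sequenced, so fewer cells of a type and less RNA per cell cannot be told apart.

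The promoters of the 5 genes that fell by 2-fold or more are shown, so these genes were picked by the size of their fall. Each window runs from 250 bases before to 50 bases after a RefSeq start on GRCm38.p6 and is written 5' to 3' on the strand of the gene. Capitals mark CCAAT, read as ATTGG on the other strand and bound by the factor NF-Y, and the GC box GGGCGG, read as CCGCCC on the other strand and bound by Sp1. The windows lie at chr15:84167566-84167865 on the plus strand for Pnpla3, at chr11:120824498-120824797 on the minus strand for Fasn, at chr11:60210422-60210721 on the minus strand for Srebf1, at chr3:129532136-129532435 on the plus strand for Elovl6 and at chr7:97417501-97417800 on the minus strand for Thrsp. RefSeq gives Srebf1 3 starts, and the most downstream one is shown.
Pnpla3: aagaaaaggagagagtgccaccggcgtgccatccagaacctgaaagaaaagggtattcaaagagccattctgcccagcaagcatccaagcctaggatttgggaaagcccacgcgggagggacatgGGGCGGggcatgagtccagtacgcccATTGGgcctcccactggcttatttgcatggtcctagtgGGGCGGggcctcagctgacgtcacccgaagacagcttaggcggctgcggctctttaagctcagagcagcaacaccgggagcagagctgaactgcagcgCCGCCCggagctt
Fasn: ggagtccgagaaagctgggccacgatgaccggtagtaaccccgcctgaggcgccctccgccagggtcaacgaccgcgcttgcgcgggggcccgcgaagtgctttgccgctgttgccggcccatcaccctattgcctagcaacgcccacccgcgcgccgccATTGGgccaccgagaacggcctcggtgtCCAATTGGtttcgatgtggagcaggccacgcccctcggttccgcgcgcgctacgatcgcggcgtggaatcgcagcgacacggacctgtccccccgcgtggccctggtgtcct
Srebf1: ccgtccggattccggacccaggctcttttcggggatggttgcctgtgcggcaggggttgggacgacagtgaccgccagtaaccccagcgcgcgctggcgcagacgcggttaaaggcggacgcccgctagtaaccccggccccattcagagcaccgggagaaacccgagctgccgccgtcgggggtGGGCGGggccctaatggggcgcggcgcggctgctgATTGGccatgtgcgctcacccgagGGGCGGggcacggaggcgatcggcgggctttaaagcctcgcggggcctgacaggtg
Elovl6: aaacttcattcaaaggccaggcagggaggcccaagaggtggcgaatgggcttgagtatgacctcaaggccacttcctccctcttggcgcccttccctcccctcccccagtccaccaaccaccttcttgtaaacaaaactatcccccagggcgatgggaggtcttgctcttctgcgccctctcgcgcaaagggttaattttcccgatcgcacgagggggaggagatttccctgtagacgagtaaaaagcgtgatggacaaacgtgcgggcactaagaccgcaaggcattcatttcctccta
Thrsp: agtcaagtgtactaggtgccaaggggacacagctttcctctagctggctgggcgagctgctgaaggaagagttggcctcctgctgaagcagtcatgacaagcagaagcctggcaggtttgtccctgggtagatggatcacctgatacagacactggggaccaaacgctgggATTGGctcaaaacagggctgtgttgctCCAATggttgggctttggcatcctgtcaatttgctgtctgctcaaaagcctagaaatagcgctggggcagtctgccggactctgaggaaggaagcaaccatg
In Fasn, 1 CCAAT and 1 ATTGG overlap, so the capitals there run together. RefSeq windows were matched for 9 of the 10 genes, 12 windows in all, and Scd1 was not matched. The only windows of Acaca (chr11:84195188-84195487) and Acacb (chr5:114165268-114165567) lie well inside these genes by their GENCODE positions. They may not be promoters, and they are counted among the 12. CCAAT stood in 8 of the 12 windows (of 7 genes), where 37.4% of all 32851 windows hold it, and the GC box in 5 of the 12 (of 4 genes), where 35.7% of all windows hold it. The letters TCACNCCAC (a sterol response element, the site of SREBP proteins), CACGTG (an E-box) and the DR4 element (the direct repeat of AGGTCA with 4 bases between that liver X receptors bind), searched on both strands, stood in 0 of the 12 windows. They stand in 1.24%, 7.15% and 0.0152% of all windows. A missing match says only that these letters are not in this stretch of sequence.

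Srebf1 (gene ID 20787, chromosome 11 of GRCm38, 60199089 to 60222581, minus strand) had a sedentary mean of 499 ± 86.6 CPM (SD, n = 6) and an exercised mean of 130.4 ± 25.2 CPM (SD, n = 6), where CPM are counts relative to library size after scaling between libraries. The lowest, median and highest sedentary liver were at 402, 492 and 620 CPM, and the exercised livers at 93.4, 129 and 172 CPM. The groups stood far apart, with even the highest exercised liver well below the lowest sedentary liver. Srebf1 was thus 3.83-fold lower (log2 fold change -1.94, SE 0.14, edgeR adjusted p = 3.73e-07). A two-sided exact permutation test over all relabellings of the livers gave p = 0.00216, the smallest p it can give for 6 livers against 6. Only 23 of the 12344 genes tested had a lower log2 fold change. Its coefficient of variation was 17.3% in sedentary and 19.3% in exercised livers, where that of Fasn was 43.9% and 34.9%. With 1 liver left out at a time, its log2 fold change stayed between -2.03 and -1.85 with the call kept in each of these fits.

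Srebf2, which encodes the sister factor SREBP-2 of cholesterol synthesis, was at 39.4 ± 5.02 CPM (SD, n = 6) and 35.0 ± 3.08 CPM (SD, n = 6), and did not pass the test (log2 fold change -0.17, edgeR adjusted p = 0.0984). The ratio of 2 genes in the same liver needs no scaling between libraries, and 10 such ratios were tested with exact permutation tests and Benjamini-Hochberg adjustment. The log2 ratio of Srebf1 to Srebf2 fell by 1.78 (95% interval -2.07 to -1.46 from the same permutation test, adjusted p = 0.00433), and no exercised liver reached the sedentary range.

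**Figure D1:**
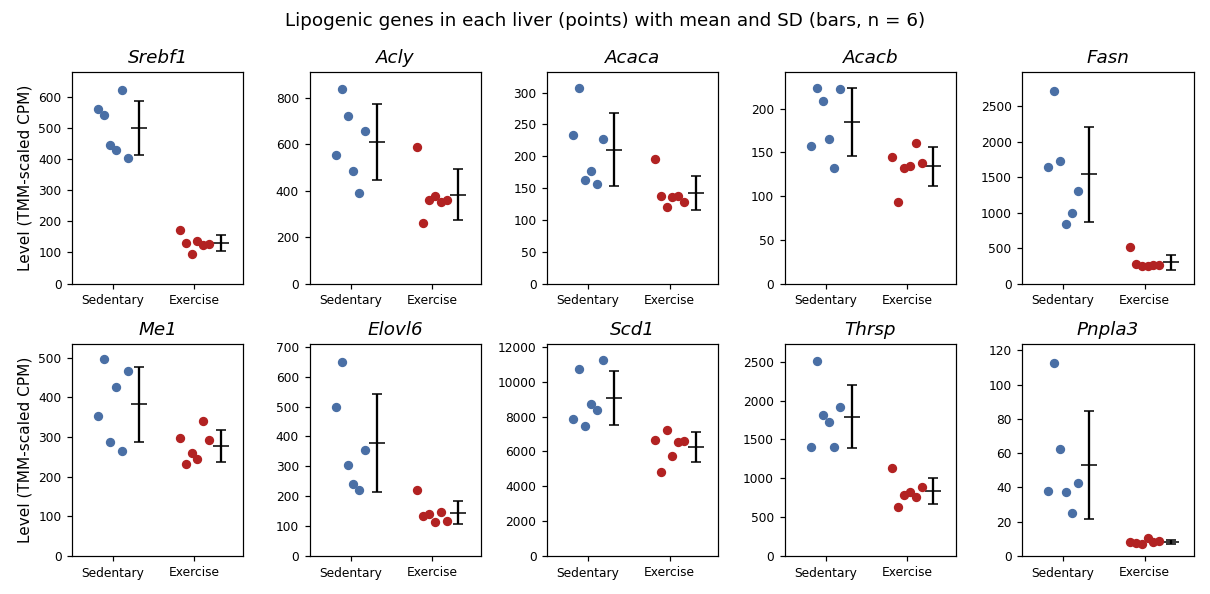
Levels of the 10 genes in TMM-scaled CPM (linear axes from 0), one panel a gene, with each liver as a point and the mean and SD of 6 livers as bars. In Srebf1, Fasn, Elovl6, Scd1, Thrsp and Pnpla3 each exercised liver lies below each sedentary liver; in the other 4 panels the groups overlap.

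The steps up to malonyl-CoA and the malic enzyme changed by less than 2-fold. Acly (chromosome 11, 100476353 to 100528000, minus strand) encodes ATP citrate lyase, which makes cytosolic acetyl-CoA. Its lowest, median and highest level was 392, 608 and 840 CPM in sedentary livers and 260, 361 and 590 CPM in exercised livers. Of the exercised livers, 5 were below each sedentary liver and Exercise replicate 1 was not. Its log2 fold change was -0.67 (SE 0.22, edgeR adjusted p = 0.0297; exact permutation p = 0.0195).

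Acaca (chromosome 11, 84129672 to 84401651, plus strand) encodes acetyl-CoA carboxylase 1, which makes the malonyl-CoA used for synthesis. It ranged over 156, 202 and 307 CPM (lowest, median and highest) in sedentary livers and 121, 137 and 196 CPM in exercised livers. Here too Exercise replicate 1 alone stood within the sedentary range. For Acaca the log2 fold change was -0.56 (SE 0.18, edgeR adjusted p = 0.0238; exact permutation p = 0.0152). Acacb (chromosome 5, 114146535 to 114250761, plus strand) encodes acetyl-CoA carboxylase 2 at the mitochondrial membrane, whose malonyl-CoA restrains fatty acid import for oxidation. Its sedentary livers were at 132, 187 and 224 CPM and its exercised livers at 93.3, 137 and 161 CPM, and only 1 exercised liver was below the sedentary range. Its log2 fold change was -0.46 (SE 0.15, edgeR adjusted p = 0.0263; exact permutation p = 0.0281). A difference in change between the carboxylases was not detected, since the log2 ratio of Acacb to Acaca moved by 0.084 (95% interval -0.36 to 0.51, exact permutation, adjusted p = 0.722).

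Me1 (chromosome 9, 86581371 to 86695953, minus strand) encodes cytosolic malic enzyme, which supplies NADPH. Its levels were 264, 390 and 496 CPM in sedentary livers and 232, 276 and 340 CPM in exercised livers, with 3 exercised livers below the sedentary range. The log2 fold change of -0.46 (SE 0.16, edgeR adjusted p = 0.0364; exact permutation p = 0.0411) was the smallest of the 10. The calls of these 4 overlapping genes were near the threshold: with 1 of the 12 livers left out at a time, Acly lost its call in 8 of the fits, Acaca in 4, Acacb in 4 and Me1 in 9. Without Exercise replicate 3 all of these genes lost it and 6 of the 10 genes remained called. All of these log2 fold changes stayed below 0, the nearest being -0.37 for Me1 without Sedentary replicate 2.

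Fasn (gene ID 14104, chromosome 11, 120805846 to 120824547, minus strand), which encodes fatty acid synthase, fell more than the steps before it. Sedentary livers ran from 832 through a median of 1473 to 2713 CPM, and exercised livers from 243 through 258 to 512 CPM. The sedentary livers were widely spread, while 5 of the 6 exercised livers lay between 243 and 274 CPM. The means were 1536 ± 675 CPM and 299.6 ± 105 CPM (SD, n = 6 each), for a log2 fold change of -2.36 (SE 0.32, edgeR adjusted p = 0.000174), and 11 genes of the table fell further. The log2 ratio of Fasn to Acaca fell by 1.77 (95% interval -2.16 to -1.35) and that of Fasn to Acly by 1.64 (95% interval -2.04 to -1.24), each with an adjusted p of 0.00433 from the exact permutation test and no overlap between the groups. The fall of Srebf1 and that of Fasn were not told apart, with a log2 ratio of Srebf1 to Fasn that moved by 0.36 (95% interval -0.23 to 0.96, exact permutation, adjusted p = 0.276).

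Elovl6 (chromosome 3, 129532355 to 129638495, plus strand) encodes the elongase that extends palmitate to stearate. It was at 222, 330 and 649 CPM (lowest, median, highest) in sedentary livers and at 115, 137 and 219 CPM in exercised livers, and the highest exercised liver came close to the lowest sedentary one without reaching it. The log2 fold change was -1.38 (SE 0.29, edgeR adjusted p = 0.00299). Elovl5, an elongase of polyunsaturated fatty acids, did not pass the test (log2 fold change -0.14, adjusted p = 0.398), and the log2 ratio of Elovl6 to Elovl5 fell by 1.18 (95% interval -1.83 to -0.53, exact permutation, adjusted p = 0.00722).

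Scd1 (gene ID 20249, chromosome 19, 44394455 to 44407879, minus strand) encodes the main hepatic stearoyl-CoA desaturase, which makes monounsaturated fatty acids. Sedentary livers were at 7456, 8553 and 11263 CPM and exercised livers at 4820, 6580 and 7229 CPM. The groups did not overlap although the change was modest, with a log2 fold change of -0.53 (SE 0.11, edgeR adjusted p = 0.0011). Scd1 fell by less than Fasn did. The log2 ratio of Scd1 to Fasn rose by 1.77 (95% interval 1.07 to 2.52, exact permutation, adjusted p = 0.00433), in 6 of 6 exercised livers above each sedentary liver. Scd2, a desaturase at a much lower level here, was at 4.85 ± 0.508 CPM and 3.49 ± 0.534 CPM (SD, n = 6 each) and fell as well (log2 fold change -0.47, edgeR adjusted p = 0.00389), and the log2 ratio of Scd1 to Scd2 moved by -0.043 (95% interval -0.39 to 0.35, exact permutation, adjusted p = 0.81). Counts of Scd1 were not whole numbers in 12 livers, as where reads are shared between genes. Whether the low counts of Scd2 hold reads of Scd1 was not tested.

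Thrsp (gene ID 21835, chromosome 7, 97412938 to 97417730, minus strand) encodes Spot 14, a small protein that goes with lipogenesis and is induced by thyroid hormone and carbohydrate. Its sedentary livers were at 1399, 1771 and 2506 CPM and its exercised livers at 635, 804 and 1134 CPM, with no overlap. Its log2 fold change was -1.10 (SE 0.16, edgeR adjusted p = 0.00013). Its close relative Mid1ip1, which promotes the polymerization of acetyl-CoA carboxylase, fell too, from 109 ± 22.2 CPM to 36.8 ± 9.97 CPM (SD, n = 6 each; log2 fold change -1.56, edgeR adjusted p = 6.73e-05). The log2 ratio of Thrsp to Mid1ip1 moved by 0.49 (95% interval 0.043 to 0.92), which did not pass after adjustment over the 10 ratios (exact permutation, adjusted p = 0.0557).

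Pnpla3 (gene ID 116939, chromosome 15, 84167837 to 84187236, plus strand) encodes a lipid droplet protein of the patatin-like phospholipase family and had the largest fold change of the 10 by edgeR. Its order against Fasn was not tested. Sedentary livers ran from 24.8 through a median of 40.3 to 112 CPM, while exercised livers held to 6.70, 8.07 and 10.3 CPM. The coefficient of variation was 59.7% in sedentary livers, the widest of the 10 genes, and 15.0% in exercised livers. The resulting log2 fold change was -2.69 (SE 0.37, edgeR adjusted p = 0.000197), and 6 genes of the table fell further. Sedentary replicate 2 held the highest value, and without it the log2 fold change was -2.32. Pnpla2, which encodes the adipose triglyceride lipase of the same family, rose from 51.2 ± 3.30 to 85.5 ± 10.7 CPM (SD, n = 6 each; log2 fold change 0.74, edgeR adjusted p = 1.09e-06). The log2 ratio of Pnpla3 to Pnpla2 fell by 3.25 (95% interval -4.03 to -2.57, exact permutation, adjusted p = 0.00433), the largest shift among the 10 ratios.

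**Figure D2:**
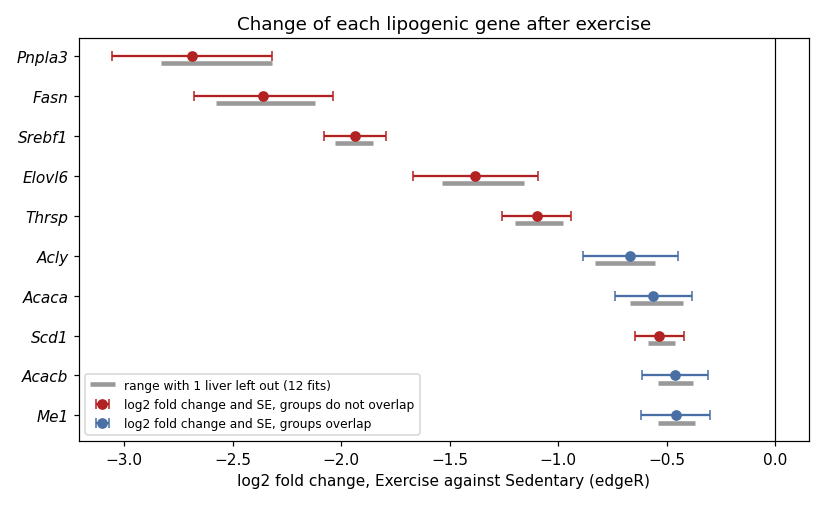
Points give each gene's log2 fold change from edgeR (Exercise against Sedentary) with its standard error, in red where the groups do not overlap and in blue where they do; grey bars give the range over 12 fits that each left out 1 liver. All 10 genes lie left of 0 throughout, from -2.69 for Pnpla3 to -0.46 for Me1.

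**Figure D3:**
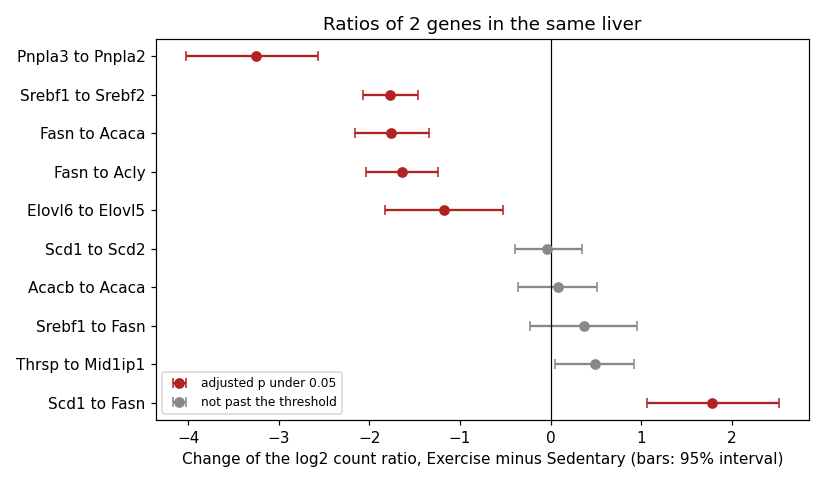
Change of the log2 ratio of 2 genes counted in the same liver, Exercise minus Sedentary, with 95% intervals from the exact permutation test; red marks an adjusted p under 0.05. Ratios of Fasn, Srebf1, Elovl6 and Pnpla3 to a partner gene fell, Scd1 to Fasn rose, and 4 ratios did not pass.

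Between genes, levels can be compared only per length of transcript, as FPKM. In sedentary livers Scd1 stood highest at 1964 ± 389.7 FPKM (SD, n = 6) and Thrsp next at 1772 ± 459 FPKM (SD, n = 6), with overlapping ranges, and no liver had Fasn, the next gene, within the range of Thrsp. Fasn, Acly, Me1 and Srebf1 followed at means of 169, 145, 128 and 122 FPKM, then Elovl6 at 67.0, Acaca at 24.4, Acacb at 22.8 and Pnpla3 at 12.5 FPKM, and from Fasn down each gene overlapped the next. In exercised livers Scd1 and Thrsp still led, with means of 1261 and 769 FPKM and overlapping ranges, and Me1 and Acly came next at 86.2 and 85.0 FPKM. Fasn dropped to 30.3 FPKM, now clear of Acly and level with Srebf1 at 30.0 FPKM. Pnpla3, at 1.82 FPKM, was below the range of every other gene of the 10. As a share of all counts, the 10 genes fell from 1.53% ± 0.327 (SD, n = 6) to 0.832% ± 0.096 (SD, n = 6). Scd1 alone made up 0.940% and 0.604%, and the other 9 genes 0.588% and 0.228%.

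Livers of the same group differed in several of the 10 genes at once. Sedentary replicate 2 was the highest sedentary liver in 8 of the 10 genes and Sedentary replicate 5 the lowest in 7. Srebf1 went against this order, since its highest sedentary value, 620 CPM, was in Sedentary replicate 5. Among exercised livers, Exercise replicate 1 was the highest in 6 genes, with 512 CPM of Fasn where the next liver had 274 CPM. Without Exercise replicate 1, 9 of the 10 genes were called, and Me1 was not. Relations of Srebf1 to each other gene were computed within each group of 6 livers, 18 in all. Pearson's r ran from -0.61 to 0.19 in sedentary and from -0.28 to 0.88 in exercised livers, and none passed after adjustment (smallest adjusted p = 0.819 for r and 0.8 for Spearman's rho, exact permutation tests). The highest was with Acaca in exercised livers (r = 0.88, exact permutation p = 0.05; rho = 0.6, exact permutation p = 0.242), and r was 0.28 once the 2 livers farthest from the median of Srebf1 were left out. In sedentary livers the same step moved r from 0.065 to 0.85 for Acaca, from 0.17 to 0.93 for Elovl6 and from 0.19 to 0.68 for Fasn. With so few livers left, r can swing widely by itself, so these shifts do not show dependence on particular livers.

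**Figure D4:**
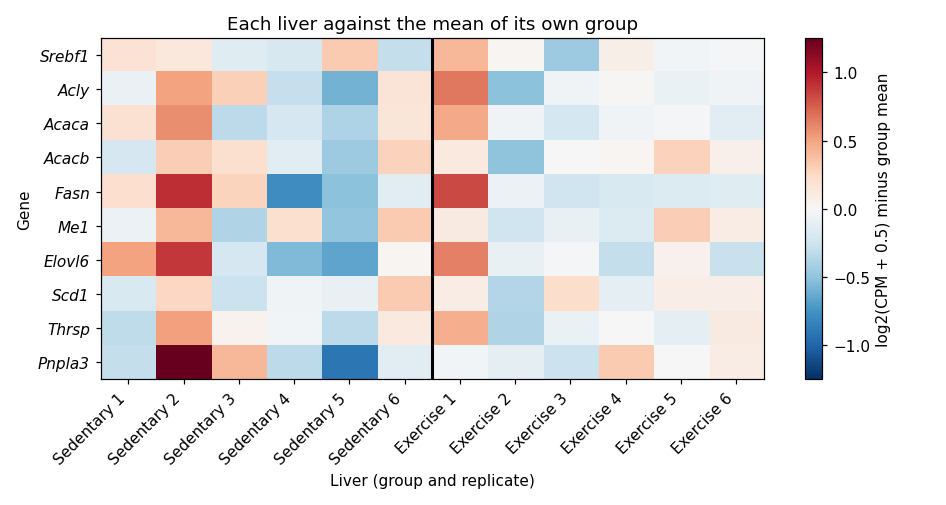
Each liver's log2(CPM + 0.5) minus the mean of its own group, by gene (rows) and liver (columns), red above and blue below the group mean. Sedentary replicate 2 is above its group's mean in each row and Exercise replicate 1 is high for Acly, Acaca, Fasn and Elovl6, while Srebf1 in Sedentary replicate 5 is red where most other genes are blue.

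The count divided by the FPKM and the library total gives the transcript length that the deposited values imply, a readout apart from the level. It would move if transcripts of another length were counted, and it does not tell apart transcripts of like length. For Srebf1 it was 4.22 kb in both groups (exact permutation, adjusted p = 0.839). Of the 10 genes, 3 passed at an adjusted p of 0.0289 in the exact permutation test, with log2 shifts of 0.013 for Fasn, -0.0013 for Acly and -0.020 for Pnpla3. These shifts lie inside the middle 90% of 9035 genes, which runs from -0.023 to 0.032, and between 0 and 3 of the 10 genes passed with 1 liver left out.

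Among 22 listed genes that carry, process, drive or restrain SREBP-1c, 6 fell, 3 rose and 13 did not pass. That is 40.9% called, where 42.4% of all genes tested were. Their median log2 fold change was -0.024, which mixes genes of opposite action. The falls with the smallest p were Nr1h4, which encodes the bile acid receptor FXR (-0.73), Nfyb, a subunit of NF-Y (-0.72), and Mlx, the partner of ChREBP (-0.36). Ppargc1b, a coactivator of SREBP-1c, rose by 1.37, Insig2, which encodes a protein that holds the SREBP precursors in the endoplasmic reticulum, by 0.52, and Sp1 by 0.51. The call of Insig2 was near the threshold (edgeR adjusted p = 0.0415) and its groups overlapped, while those of Ppargc1b and Sp1 did not. Insig1, a relative of Insig2 and itself a target of SREBP proteins, fell by 0.86 on the log2 scale (named after its value was seen). Mlxipl, which encodes ChREBP, and Nr1h3, which encodes the liver X receptor alpha, did not pass (log2 fold changes -0.15 and -0.13, edgeR adjusted p = 0.106 and 0.141, both named after their values were seen).

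Of 30 other tested genes of fatty acid synthesis, elongation and desaturation, 17 fell, 1 rose and 12 did not pass. The share called was 60%, where that of all genes tested was 42.4%, and the median log2 fold change was -0.25. The list also holds a few genes next to the pathway, and the rise was that of Pnpla2, the lipase above, which is not an enzyme of synthesis. The smallest p among the falls belonged to Acsl1, a long-chain acyl-CoA synthetase (-0.69), Mcat, of mitochondrial fatty acid synthesis (-0.53), and Cyb5b, a cytochrome b5 (-0.50). NADPH supply was mixed, with 3 of 16 genes lower, 2 higher and 11 not past the test. The share called was 31.3%, below the 42.4% of all genes tested. Rpia of the pentose phosphate pathway (-1.30), Pgd of the same pathway (-0.41) and Idh1, cytosolic isocitrate dehydrogenase (-0.33), fell, while Me3, a mitochondrial malic enzyme (0.53), and Nadk, which makes NADP (0.28), rose. Scaling by library size alone called 6 of these 16 lower in place of 3.

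Among 15 other genes known as targets of SREBP-1c, liver X receptors or ChREBP, 5 fell, 4 rose and 6 did not pass. Among the falls were Angptl8, an insulin-induced regulator of lipoprotein lipase (-2.65), and Lpcat3, a phospholipid-remodelling enzyme (-0.60). Lpin1, which makes diacylglycerol and coactivates oxidative genes, rose by 2.21 and Mylip, which degrades the LDL receptor, by 0.96. Scaling by library size left 2 of these 15 genes called higher in place of 4. In the cholesterol arm of the SREBP family, 15 of 22 genes fell and 0 rose by edgeR's test, with 0 higher at an unadjusted p under 0.05 and 0 higher by DESeq2, limma-voom and limma on log2(FPKM + 0.1). Their median log2 fold change was -0.75, and the smallest p belonged to Sc5d (-1.16) and Stard4 (-0.83), of sterol synthesis and transport. Over all genes tested, 42.4% passed in either direction.

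**Figure D5:**
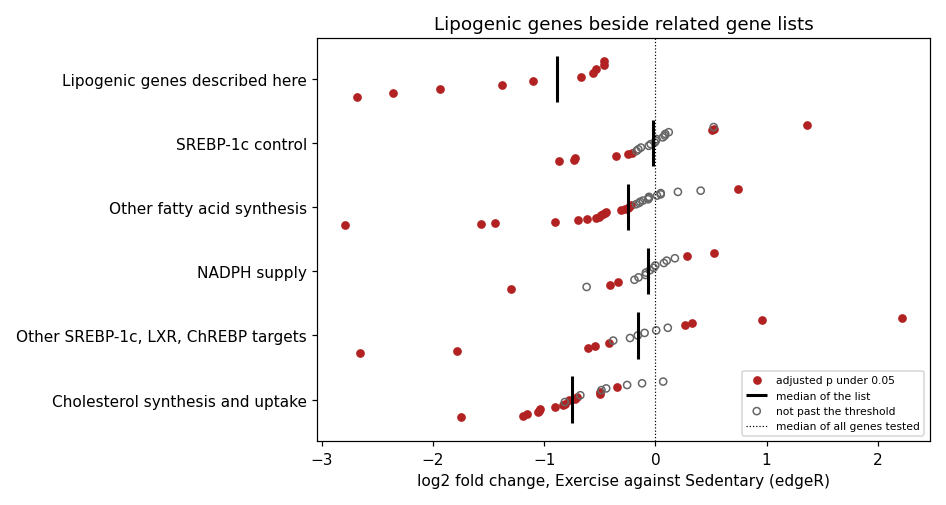
Log2 fold change (edgeR, Exercise against Sedentary) of each tested gene by list, red where the adjusted p is under 0.05 and open where it is not, with the median of each list (bar) and of all genes tested (dotted line). The 10 genes described here and the cholesterol genes lie mostly left of 0, with medians of -0.88 and -0.75, and the genes that control SREBP-1c lie around 0, with a median of -0.024.

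The genes whose pattern over the 12 livers was most like that of Srebf1, by the mean absolute difference of log2(CPM + 0.5) centred on the sedentary mean, were Hdhd3, Rnf186, Klhdc7a, Cldn2 and Fam83f, with differences of 0.21, 0.28, 0.28, 0.29 and 0.30. Because each gene is centred on its sedentary mean, this difference depends largely on the size of the fall. Fam83f went from 2.95 to 0.22 CPM, with an edgeR log2 fold change of -3.71 against -1.94 for Srebf1. The added 0.5 shrinks the change of so low a gene on this scale. Of the other 9 genes described here, Fasn came nearest, at rank 23 of 11536 genes with 0.43, and Elovl6, Pnpla3 and Thrsp ranked 71, 85 and 127.

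The libraries held 18745379 to 19324461 counts and carried the markers of liver, with summed hepatocyte markers of 113844 to 154005 CPM in sedentary and 137763 to 158527 CPM in exercised livers. Of 8 hepatocyte markers Alb and Hnf4a rose (log2 fold changes 0.24 and 0.59) and 0 passed lower by edgeR, DESeq2 or limma-voom (1 by limma on log2(FPKM + 0.1) and 1 with library size scaling), with 1 lower at an unadjusted p under 0.05 in edgeR's test. The defining fat cell genes Adipoq, Plin1, Cfd and Retn had 7 counts in all over the 12 livers. The 7 adipocyte markers in the table summed to 20.7 to 25.8 CPM in sedentary and 20.7 to 28.4 CPM in exercised livers, and of the 3 tested Fabp4 rose (log2 fold change 0.58), Lpl fell (-0.80) and Cidec did not pass. Striated muscle markers moved with the groups: the 4 tested of 7 fell by edgeR and limma-voom, while DESeq2 called 1 of the 4 lower (3 at an unadjusted p under 0.05), and the summed level of all 7 was 11.1 to 23.1 CPM in sedentary livers, 11.3 CPM in Exercise replicate 1 and 0.058 to 1.07 CPM in the other exercised livers. Their part in the results was not tested. Markers of endothelial cells passed in 4 of 7 genes (3 higher, 1 lower) and of stellate cells in 2 of 7 (both lower). Of all genes tested, 42.4% passed. Markers of Kupffer cells (8 tested), bile duct cells (5) and blood cells (5) had 0 calls by edgeR and 0 at an unadjusted p under 0.05. DESeq2 and limma-voom also made 0 calls there, with 1 blood gene at an unadjusted p under 0.05 in each, while limma on log2(FPKM + 0.1) called 2 blood genes lower.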

How the data were processed

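Liver RNA was extracted with TRI Reagent and sequenced from 12 mice. Per the labels, the authors used Bowtie2 2.3.4.3, RSEM 1.3.1 and the build mm10; annotation and strand are not given in the sources used here. The deposited table holds expected counts (not scaled between libraries; 31.3% not whole numbers) and FPKM values, which the authors scaled for transcript length and depth. Counts of Srebf1, Elovl6, Scd1 and Pnpla3 were not whole in 11 or 12 livers, as where shared reads are divided between genes, and Srebf1, Acaca, Me1 and Elovl6 overlap genes on the other strand, and Acacb and Pnpla3 overlap pseudogenes there.

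Groups came from the labels. Counts were rounded, filtered by filterByExpr (minimum count 10), scaled by TMM and fitted by edgeR 4.0.16 under R 4.3.3 (glmQLFit robust, glmQLFTest, threshold 0.05), with group as the only term and p adjusted over 12344 genes. The edgeR fit was tested on simulated counts, and the other steps were not. Single genes and ratios were compared by two-sided exact permutation tests over all relabellings (Python 3.11.15). Alternatives were other filters, other scalings, DESeq2 1.42.0, limma-voom and limma 3.58.1 on log2(FPKM + 0.1) or log2(FPKM + 1), the replicate number as a block and leaving out each liver. No pair among 66 library pairs was identical, and within groups the chi-square per gene of 2 libraries was 7.53 to 42.1, above the noise of counting. The labels give no litter, cage or sequencing batch, so p-values measure the spread between these livers. The depth per library makes counting error small beside that spread for genes with many reads. It is not small for low ones such as Scd2, with a sedentary mean of 4.85 CPM.

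The 10 genes and all lists were chosen with earlier results of these data known. Named by rule were these 10 genes, the partner genes of the ratios, up to 3 called genes per direction and list with the smallest p, and the 5 genes most like Srebf1 with a mean of at least 1 CPM. Some genes that the rule names are left out of the text. Gene positions are from GENCODE on GRCm38 and promoter windows from RefSeq on GRCm38.p6.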

Additional observations from a re-analysis of the deposited data

Results flagged for a closer look

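In 4 of the 10 genes, Exercise replicate 1 stood apart above the other 5 exercised livers, by the gap to the next liver as a share of the range (Dixon's criterion at the 95% level). It held 512 CPM of Fasn, where the next liver had 274 CPM (share 0.883), and 196 CPM of Acaca, where the next had 138 CPM (0.769). For Elovl6 it held 219 CPM against 147 CPM (0.695), and for Acly 590 CPM against 377 CPM (0.647). Of 20 groups of livers examined on the CPM scale, 4 stood out in this way, all in this 1 liver, where chance gives 1. The 10 genes share the same livers, so these are not separate trials, and on the log2 scale the list can differ. The same liver was the exercised liver with striated muscle markers at the sedentary level (11.3 CPM, against at most 1.07 CPM in the other exercised livers), and the part of that in these values was not tested. Without it the log2 fold change was -2.58 for Fasn, -0.67 for Acaca, -1.53 for Elovl6 and -0.83 for Acly, each further from 0. It was the highest exercised liver in each of these genes, so that direction follows from leaving it out.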

How the results depend on the processing

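The 6 genes whose groups did not overlap (Srebf1, Fasn, Elovl6, Scd1, Thrsp and Pnpla3) kept their direction and their call under each of 10 other settings and each of 12 fits that left out 1 liver, and this count was also 6 with library size scaling and with FPKM (chosen after seeing the data). Pnpla3 fell furthest of the 10 by edgeR, while limma on log2(FPKM + 1) gave a log2 fold change of -2.10 for Pnpla3 and -2.37 for Fasn. All 10 genes were called in 8 of the 10 other settings, 9 without a low-count filter (Me1 lost) and 7 with the replicate number as a block. The replicate block lost Acly, Acacb and Me1, and called 4956 genes of the table in place of 5229. The numbers are not known to pair mice: livers with the same number correlated at -0.11 to 0.17 after removing group means, over 0.1 in 2 of 6 pairs, and 2 of 6 correlated best with their own number. With 1 liver left out, 6 to 10 of the 10 genes were called (6 without Exercise replicate 3), 4739 to 5222 genes of the table, 6 to 7 of the 10 ratios and 0 to 3 of the 10 implied lengths. Only values near 0 changed sign: the log2 ratio of Scd1 to Scd2 (-0.18 to 0.034), and the log2 shifts in implied length of Srebf1 (-0.0012 to 0.00039), Scd1 (-9.46e-07 to 3.35e-07) and Elovl6 (-2.58e-05 to 8.89e-05). The ratio of Thrsp to Mid1ip1 passed in 4 of these fits. The cause was not tested. Scaling moved the balance of calls over the table, from 2603 higher and 2626 lower to 1767 and 3735 with library size alone, with a median log2 shift of -0.098, smaller than each of the 10 changes.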
